A study of Mus musculus with 6 samples.

Results

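The serpin family was represented by 62 of the 23793 rows of the authors' deposited table, every row whose gene symbol begins with Serpin. The rows covered 63 genes, because Serpina3f and Serpina3g shared 1 row. The cells were i660BM, pro-B cells of the C57BL/6 mouse strain kept as a line in medium with interleukin 7 and fitted with a PU.1-inducible system. The induced group was 3 libraries from cells given 70 ng/ml doxycycline for 48 hours, and the non-induced group was 3 libraries from cells not induced. Both groups carried the inducible system, both came from the same line, and no library had the drug without the inducible factor, so drug and factor cannot be told apart. PU.1, encoded by Spi1, is an ETS family transcription factor of myeloid and B cells. Each gene had 1 FPKM value per group, that is, fragments per kilobase of transcript relative to the fragments sequenced. No value per library, and so no standard deviation, can be shown. The rows were chosen by symbol, but the family itself was selected on the FPKM values of the 2 groups in the same table, so its counts and changes are a description.

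Serpins are a superfamily of proteins that mostly inhibit serine or cysteine proteases. A flexible loop of the inhibitor is cut by the protease as a bait, the inhibitor then changes shape, and the enzyme stays trapped on it. A few members, such as Serpinf1 and Serpinh1, do not inhibit proteases. The clade letter in each symbol follows sequence relationship. Members of clade B mostly stay inside the cell, whereas most of the other clades are secreted, many of them by the liver.

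The levels checked the labels and the depth first. Spi1 stood at 246 FPKM in induced and 36.0 FPKM in non-induced cells, a log2 change of 2.78 in the authors' deposited table (q = 0.000287). Of 12 pro-B cell markers, all tested, 10 were higher in induced cells and 0 were lower. Over all rows the authors tested, 19.0% were higher and 16.1% lower. The steps between the lowest values put the depth at about 1.23e+08 fragments for the induced group and 1.17e+08 for the non-induced group, or about 4.12e+07 per induced and 3.90e+07 per non-induced library. Fragment numbers given for single genes rest on this estimate and are approximate.

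Few serpin genes were expressed at a level the authors could test, and those few changed in both directions. Of the 62 rows, 8 had been tested by the authors, against 44.8% of all rows. Here a called row is a tested one with a deposited q-value (the p-value after adjustment for multiple testing) under 0.05. By that rule 3 serpin rows were higher in induced cells, Serpinc1, Serpini1 and Serpinb6a. Another 4 were lower, Serpinb1a, Serpinb6b, Serpinb9 and the joint row of Serpina3f and Serpina3g. Serpinf1 was tested and not called. In the authors' deposited table as a whole, 35.1% of the 10657 tested rows were called, 19.0% higher and 16.1% lower. The median absolute log2 change was 0.65 over the 8 serpin rows and 0.17 over all tested rows.

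Other rules changed some of these calls. At a minimum of 2-fold, 3 serpin rows were called, 2 higher and 1 lower, where 4.06% of all tested rows were called, 2.51% higher and 1.55% lower. At a minimum of 1.5-fold, 2 serpin rows were higher and 2 lower, where 10.2% of all tested rows were called, 6.34% higher and 3.85% lower. With the q-value under 0.01, 2 serpin rows were higher and 3 lower, where 25.9% of all tested rows were called, 14.8% higher and 11.1% lower. The calls that this removed were those of Serpinb6a and of the joint row. Reading the test statistic as a normal deviate also left 2 higher and 3 lower, where 15.2% of all rows with a statistic were called and 6.17% were lower. Among rows whose locus is not shared with another gene, 2 were higher and 4 lower, where 38.7% were called, 20.6% higher and 18.0% lower. Among rows of at least 1 FPKM in either group, 3 were higher and 4 lower, where 35.1% were called, 18.8% higher and 16.4% lower. Every tested serpin row met that minimum, so it removed none of them.

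**Figure D1:**
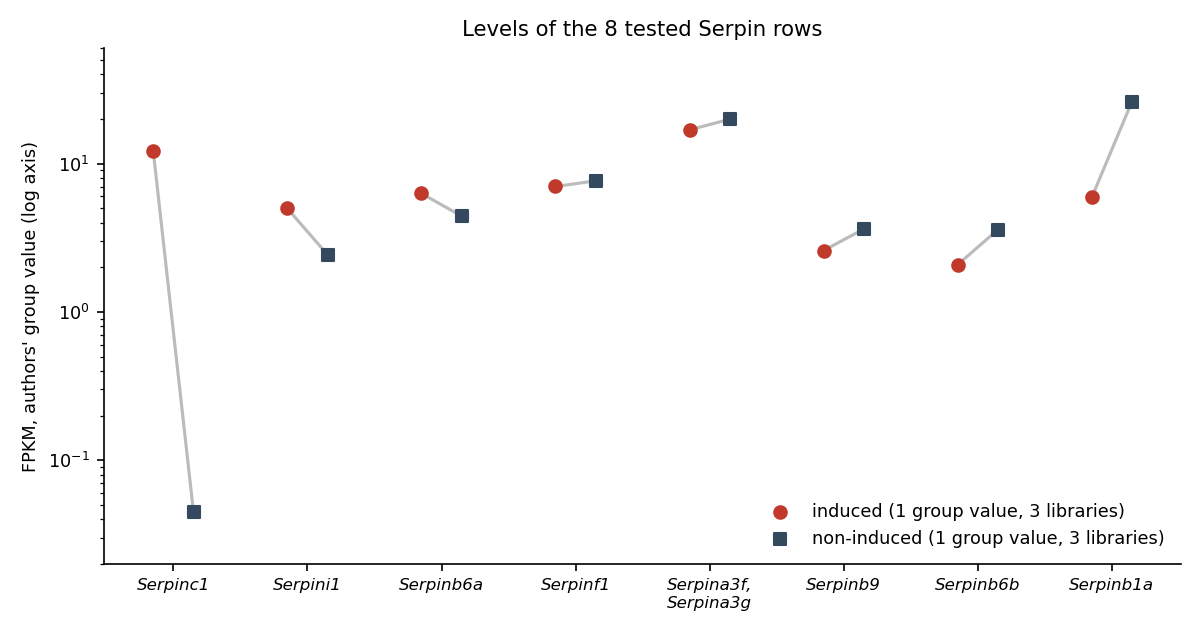
FPKM of the 8 tested serpin rows on a log axis, with the authors' value for induced cells (circles, left) and non-induced cells (squares, right) joined by a line. Serpinc1 stood at 12.1 FPKM in induced and 0.0445 FPKM in non-induced cells, while all the other rows lay above 2 FPKM in both groups.

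**Figure D2:**
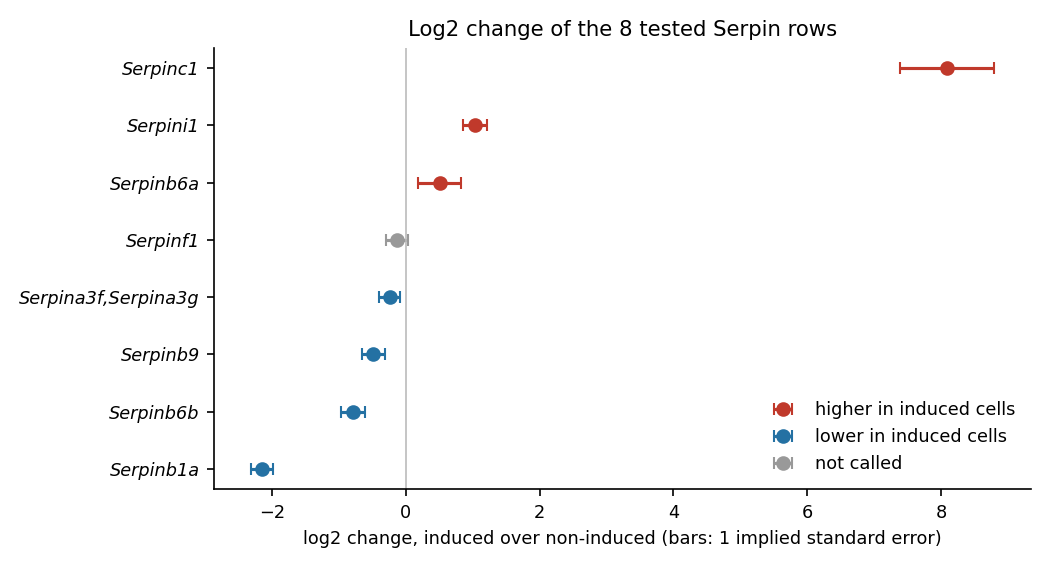
Log2 change of the 8 tested rows, induced over non-induced, with bars of 1 implied standard error, which is the authors' log2 change divided by their test statistic. Values run between 8.08 for Serpinc1 and -2.15 for Serpinb1a, and the bar of Serpinf1 crosses 0.

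Among the secreted inhibitors Serpinc1 had the largest change. Serpinc1 encodes antithrombin, the heparin-activated plasma inhibitor of thrombin and factor Xa that is made chiefly by hepatocytes. In the authors' deposited table it stood at 12.1 FPKM in induced cells, against 0.0445 FPKM in non-induced cells. Those values correspond to about 3160 fragments in the 3 induced libraries together and about 11 fragments in the 3 non-induced libraries. The level was above that of 42.4% of tested rows in induced cells and above that of 0.601% in non-induced cells. The authors' deposited table gave a log2 change of 8.08 (q = 0.00055), with an implied standard error of 0.70. The non-induced value rests on few fragments, and with 1 FPKM added to both groups the log2 change was 3.65. The gene is protein coding and occupies chr1:160978585-161005863 (mm10, plus strand). No window of 50 bases in its transcript was shared with another serpin gene.

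Most other hepatocyte transcripts were listed at 0 in these cells. Of 10 hepatocyte markers, 8 were listed at 0 in both groups of the authors' deposited table, among them Alb, Ttr, Apoa1 and Fgb, which encode plasma proteins made by the liver. The summed level of the 10 markers was 0.547 FPKM in induced and 0.665 FPKM in non-induced cells. Macrophage and granulocyte markers had 11 rows, of which 4 were tested and all 4 were higher, where 19.0% of all tested rows were. The other 7 were not tested. Together the 11 rows had a summed level of 24.3 FPKM in induced and 2.28 FPKM in non-induced cells. Lyz2 was at 15.2 FPKM in induced and 0.361 FPKM in non-induced cells, and Cd68 at 6.86 FPKM in induced and 1.85 FPKM in non-induced cells, while neither group had a value above 0 for Elane, S100a8 or S100a9. Whether these transcripts and Serpinc1 come from the same cells was not tested. In RNA from a whole culture, fewer cells of a type and less RNA per cell cannot be told apart.

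Serpini1 was the second secreted inhibitor that rose. It encodes neuroserpin, an inhibitor of tissue plasminogen activator best known from neurons. Its level was 4.98 FPKM in induced cells and 2.43 FPKM in non-induced cells, or about 1918 and 887 fragments. The authors' deposited table gave a log2 change of 1.04 (q = 0.000287), a 2.05-fold difference, with an implied standard error of 0.18. The gene is protein coding and occupies chr3:75557547-75643495 (mm10, plus strand). Plat, the gene of the protease it is known to inhibit, was listed at 0 in both groups.

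Serpinf1 and the clade A row had smaller differences. Serpinf1 encodes pigment epithelium-derived factor, a serpin without inhibitory activity, at chr11:75409769-75422701 (mm10, minus strand). It stood at 7.003 FPKM in induced and 7.65 FPKM in non-induced cells. In the authors' deposited table its log2 change was -0.13 (q = 0.357), with 0.16 as implied standard error. The joint row of Serpina3f and Serpina3g was at 16.9 FPKM in induced and 19.9 FPKM in non-induced cells, the highest serpin level of the induced group. Serpina3g is known as an intracellular inhibitor of cysteine cathepsins in mouse leukocytes, although clade A proteins are typically secreted. The fall of the row was small: its log2 change in the authors' deposited table was -0.24 (q = 0.0224), with 0.16 as implied standard error. Read as a normal deviate, its test statistic gave a Benjamini-Hochberg adjusted value of 0.388, which ended the call. The copies of this family are similar in sequence: 16.0% of 50-base windows of the Serpina3g transcript and 10.7% of those of Serpina3f occur in another serpin gene, so fragments may have been divided between copies.

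Inside the cell the largest fall was that of Serpinb1a, which encodes an inhibitor of the neutrophil proteases elastase, cathepsin G and proteinase 3. The gene occupies chr13:32842092-32851185 (mm10, minus strand). It had 5.90 FPKM in induced cells, against 26.1 FPKM in non-induced cells, or about 1398 and 5872 fragments. It was the highest serpin level of the non-induced group, above that of 64.5% of tested rows, and in induced cells it was above that of 26.6%. The authors' deposited table gave a log2 change of -2.15 (q = 0.000287), with an implied standard error of 0.16, so the level was 4.43-fold lower in induced cells. The granule proteases it is known to inhibit were listed near 0. Elane and Ctsg were listed at 0 in both groups. Prtn3 was at 0.0565 FPKM in induced and 0.186 FPKM in non-induced cells and was not tested. The deposited loci of Elane and Prtn3 are shared with other genes.

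Both other clade B genes that fell did so by less. Serpinb6b, reported to inhibit granzyme A and located at chr13:32965209-32979067 (mm10, plus strand), stood at 2.08 FPKM in induced and 3.58 FPKM in non-induced cells. In the authors' deposited table its log2 change was -0.78 (q = 0.000287), with 0.18 as implied standard error. Serpinb9 encodes an inhibitor of granzyme B that shields leukocytes from their own or others' granules, at chr13:33003250-33017957 (mm10, plus strand). It was at 2.59 FPKM in induced and 3.62 FPKM in non-induced cells. In the authors' deposited table its log2 change was -0.48 (q = 0.000287), again with 0.18 as implied standard error. Gzmb, the gene of granzyme B, was listed at 0 in both groups. As folds, Serpinb6b was 1.72-fold and Serpinb9 1.40-fold lower in induced cells.

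Serpinb6a was the only tested clade B row that was higher. It encodes a widely expressed intracellular inhibitor known to act on cathepsin G, and occupies chr13:33917918-34002794 (mm10, minus strand). Its level was 6.29 FPKM in induced cells and 4.42 FPKM in non-induced cells, a log2 change of 0.51 in the authors' deposited table (q = 0.0341). The implied standard error was 0.32, larger than for any other tested serpin row except Serpinc1. Read as a normal deviate, its test statistic gave an adjusted value of 0.365, which ended the call. The deposited locus is shared with Nqo2, which overlaps Serpinb6a on the opposite strand and stood at 6.88 FPKM in induced and 7.24 FPKM in non-induced cells. Ripk1, also on the opposite strand, overlaps the 5′ end of Serpinb6a and stood at 16.4 FPKM in induced and 16.8 FPKM in non-induced cells. Whether the counting used strand is not given in the sources used here. Fragments of Serpinb6a and of these overlapping genes therefore cannot be told apart with certainty. Serpinb6a was the serpin row nearest inside the q threshold and Serpinf1, at 0.357, the only tested row outside it.

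The promoter sequences of 5 called genes, those that rose and both clade B genes with smaller falls, are shown because PU.1 binds DNA at sites with the ETS core GGAA. Windows run from 250 bases before to 50 bases after the start site, from RefSeq on GRCm38.p6, the assembly also called mm10, and 52 of the 63 genes had one. Sequences are written 5′ to 3′ on the strand of the gene, with GGAA, or its reverse complement TTCC, in capitals. For Serpinb6a, which has 2 annotated start sites, the window of the distal one is shown. It lies inside the annotated gene Ripk1 on the opposite strand, so its letters belong to both genes. Serpina3f and Serpina3g, which share 1 row, are given by their counts only. Serpinb1a is not shown because it was among the genes without a window, so no motif count covers it.
Serpinc1, chr1:160978333-160978632, plus strand: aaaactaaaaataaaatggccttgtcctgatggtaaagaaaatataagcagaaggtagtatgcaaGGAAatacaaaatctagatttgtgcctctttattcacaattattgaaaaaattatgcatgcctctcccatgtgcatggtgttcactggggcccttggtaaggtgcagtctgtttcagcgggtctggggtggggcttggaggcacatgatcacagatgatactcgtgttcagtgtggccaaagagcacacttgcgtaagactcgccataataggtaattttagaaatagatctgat
Serpini1, chr3:75557243-75557542, plus strand: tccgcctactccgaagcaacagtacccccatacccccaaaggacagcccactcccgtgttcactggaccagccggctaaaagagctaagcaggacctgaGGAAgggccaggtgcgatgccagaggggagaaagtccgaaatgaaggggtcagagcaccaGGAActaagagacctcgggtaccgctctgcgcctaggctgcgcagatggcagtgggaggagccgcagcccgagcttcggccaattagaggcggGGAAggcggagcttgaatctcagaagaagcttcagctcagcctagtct
Serpinb6a, chr13:34002745-34003044, minus strand: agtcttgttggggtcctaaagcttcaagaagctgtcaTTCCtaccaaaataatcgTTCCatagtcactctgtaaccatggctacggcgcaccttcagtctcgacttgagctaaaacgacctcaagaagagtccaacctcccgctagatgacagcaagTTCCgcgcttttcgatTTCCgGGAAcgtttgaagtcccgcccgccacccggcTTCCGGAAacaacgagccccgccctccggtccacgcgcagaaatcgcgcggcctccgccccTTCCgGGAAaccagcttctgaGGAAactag
Serpinb6b, chr13:32965011-32965310, plus strand: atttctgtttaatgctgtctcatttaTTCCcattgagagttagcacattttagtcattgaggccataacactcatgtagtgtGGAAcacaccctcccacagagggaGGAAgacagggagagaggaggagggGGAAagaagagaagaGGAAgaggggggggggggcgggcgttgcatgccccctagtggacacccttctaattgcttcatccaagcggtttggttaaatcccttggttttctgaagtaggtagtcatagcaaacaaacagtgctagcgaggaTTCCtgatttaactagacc
Serpinb9, chr13:33004291-33004590, plus strand: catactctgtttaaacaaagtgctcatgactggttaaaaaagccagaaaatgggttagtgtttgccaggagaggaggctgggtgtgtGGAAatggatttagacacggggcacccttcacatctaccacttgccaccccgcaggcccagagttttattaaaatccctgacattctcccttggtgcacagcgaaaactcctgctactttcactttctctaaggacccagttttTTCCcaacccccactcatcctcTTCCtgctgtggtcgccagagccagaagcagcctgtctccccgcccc

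The core was common in these windows and in promoters at large. GGAA was present on either strand in 56 of 61 windows of serpin genes and in 96.0% of all 32851 windows in the table. Serpinc1 held 1 match, Serpini1 and Serpinb9 held 3 each, Serpinb6b held 6 and the distal Serpinb6a window 10. Not shown, both windows of Serpina3f overlap and held the same 6 matches. The window of Serpina3g held 5, the other Serpinb6a window 3 and that of Serpinf1 2. The longer string GAGGAA, which contains the core, was found in 15 of the 61 serpin windows and in 28.3% of all windows. It occurred once in Serpini1, at 153 bases before the start site, once in the distal Serpinb6a window and in 2 places in Serpinb6b. GAGGAAGT, which contains both shorter strings, was found in 1 of the 61 serpin windows, that of no tested gene, and in 3.20% of all windows. A match describes the letters of the window and is not a measured binding site.

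The make-up of the family changed more than its sum. Added over all 62 rows, serpin transcripts came to 58.3 FPKM in induced and 68.0 FPKM in non-induced cells. Serpinc1 made up 20.7% of that sum in induced cells and 0.0654% in non-induced cells. Serpinb1a made up 10.1% in induced and 38.4% in non-induced cells. Without these 2 rows the sum was 40.3 FPKM in induced and 41.8 FPKM in non-induced cells. By clade, the intracellular clade B gave 29.1% of the sum in induced and 55.7% in non-induced cells, whereas clade A gave 29.2% in induced and 29.3% in non-induced cells. Clade F gave 12.1% in induced and 11.3% in non-induced cells, and clade I gave 8.54% in induced and 3.57% in non-induced cells. The sums have no error, because the table holds 1 value per group.

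**Figure D3:**
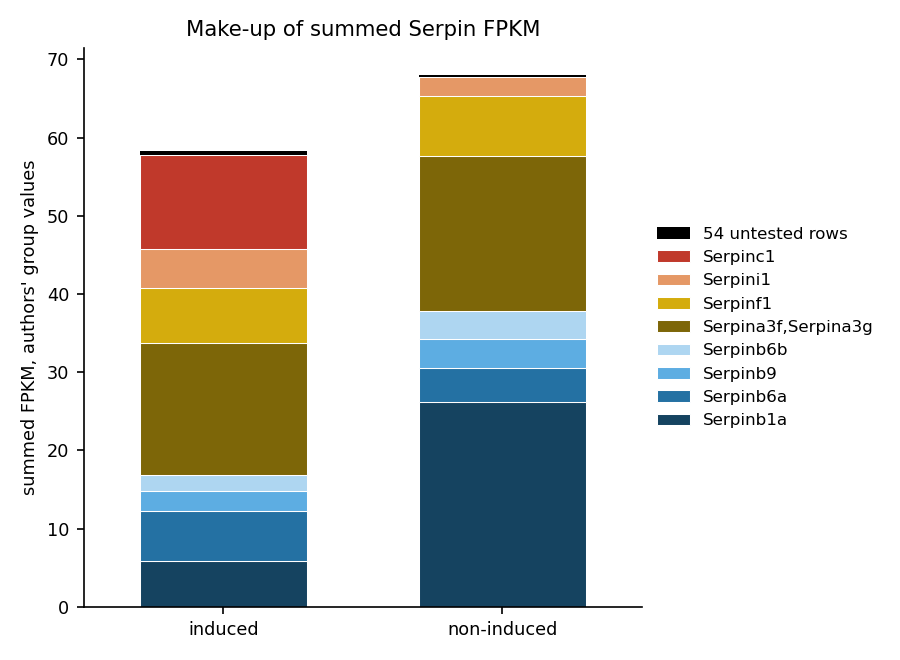
Summed FPKM of the serpin rows in induced (left) and non-induced (right) cells, stacked by gene, with the 54 untested rows as a thin band on top. The Serpinc1 segment makes up 20.7% of the induced bar and is too thin to see in the non-induced bar, and the Serpinb1a segment makes up 10.1% of the induced bar and 38.4% of the non-induced bar.

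Most serpin genes were listed at or near 0. The authors had not tested 54 rows, 23 of clade A, 23 of clade B, 3 of clade E and 1 each of clades D, F, G, H and I. Of these, 38 were listed at 0 in both groups of the authors' deposited table, and a listed 0 can be a failed estimate. They included Serpina1a to Serpina1f, the mouse copies of alpha-1-antitrypsin, the hormone carrier genes Serpina6 and Serpina7, and Serping1, the inhibitor of the C1 complement proteases. The other 16 rows lay between 0.00313 and 0.196 FPKM where they were above 0, with 4 above 0 in induced cells only, 3 in non-induced cells only and 9 in both. Of those 9 rows, 5 had the higher listed value in induced and 4 in non-induced cells.

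Only 2 untested rows reached 0.1 FPKM. Serpine3, a clade E member, was listed at 0.196 FPKM in induced and 0.0800 FPKM in non-induced cells, or about 34.0 and 13.1 fragments. Its deposited locus is shared with Ints6, a gene at 10.2 FPKM in induced and 10.9 FPKM in non-induced cells. The pseudogene Serpina4-ps1 was listed at 0.145 FPKM in induced cells, about 23.1 fragments, and at 0 in non-induced cells. Serpinh1, the collagen chaperone HSP47, was chosen after its values were seen, as a low row of known function. It was listed at 0 in induced and 0.0268 FPKM in non-induced cells, the second about 7.14 fragments.

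Most serpin genes lie in 3 tandem clusters, and the clusters differed in how much of them was expressed. The Serpinb cluster on chromosome 13, at 32842092 to 34002794 (mm10), holds 15 rows, 4 of them tested, with a summed level of 17.0 FPKM in induced and 37.8 FPKM in non-induced cells. Its other 11 rows reached at most 0.0396 FPKM. The Serpinb cluster on chromosome 1, at 106861173 to 107610484, holds 12 rows, none tested and 11 listed at 0 in both groups. The Serpina cluster on chromosome 12, at 103614786 to 104414329, holds 23 rows, of which the joint row of Serpina3f and Serpina3g was the only one tested and 19 were listed at 0 in both groups. Within the chromosome 13 cluster the 3 rows that fell, Serpinb1a, Serpinb6b and Serpinb9, lie within 161 kb of each other by their first bases, and Serpinb6a, the row that rose, lies at the other end, 1076 kb from the first base of Serpinb1a.

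**Figure D4:**
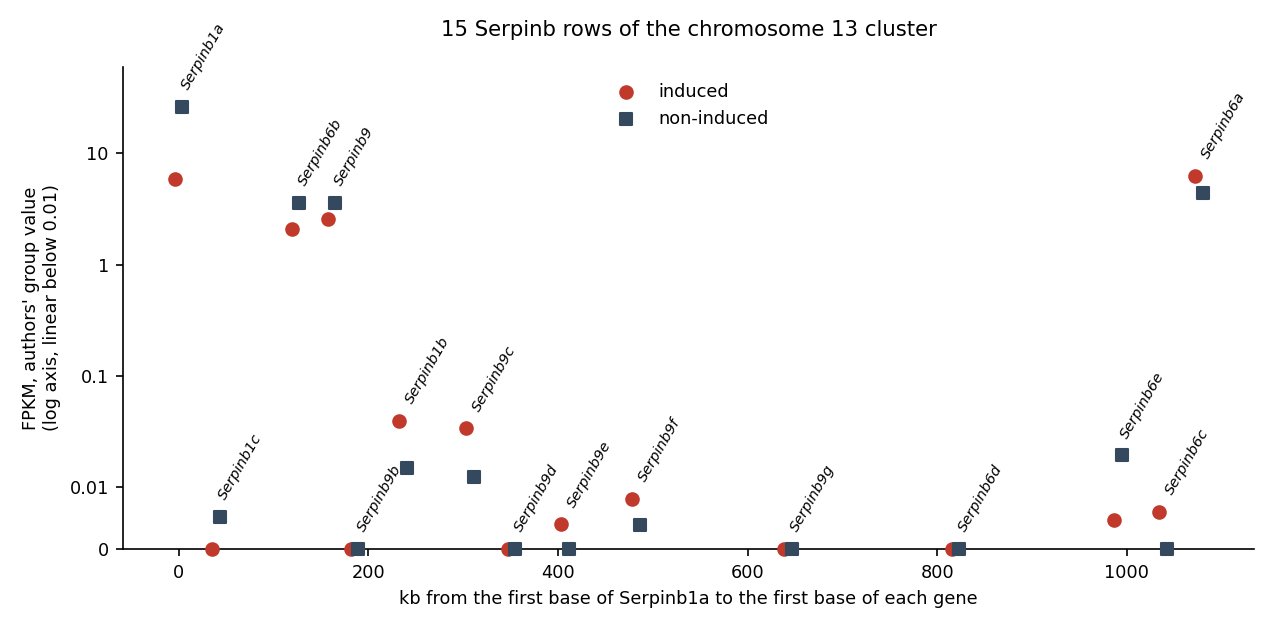
FPKM of the 15 Serpinb rows of the chromosome 13 cluster against distance in kb from the first base of Serpinb1a, on an axis that is logarithmic above 0.01 and linear below it, with induced values as circles and non-induced values as squares. The 4 tested rows stand above 2 FPKM in both groups, and the other 11 rows lie at or below 0.0396 FPKM.

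Genes next to the called serpins did not all move with them. The 3 annotated protein-coding genes on either side of each called serpin were counted, leaving out the tested serpins themselves. This gave 31 genes, 14 of them serpins, of which the authors had tested 13 and called 3 higher and 4 lower. Over all tested rows 35.1% were called, 19.0% higher and 16.1% lower. On the side of Serpinb1a away from the cluster, Wrnip1, which encodes a protein of replication fork maintenance, fell to 60.6 FPKM in induced cells, against 87.3 FPKM in non-induced cells (log2 change -0.53 in the authors' deposited table, q = 0.000287). Mylk4, a myosin light chain kinase gene one position further, was at 0.144 FPKM in induced and 0.274 FPKM in non-induced cells and was called lower (log2 change -0.93 in the authors' deposited table, q = 0.000287). At the opposite end, next to Serpinb6a, Nqo2 and Ripk1 were not called and Bphl was lower (log2 change -0.35 in the authors' deposited table, q = 0.00174).

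Around Serpinc1 the nearest genes differed little. Rc3h1, which ends 3.6 kb before Serpinc1 and encodes the RNA-binding protein roquin-1, was at 8.30 FPKM in induced and 8.23 FPKM in non-induced cells, with a log2 change of 0.01 in the authors' deposited table (q = 0.947). Zbtb37, whose annotation overlaps the end of Serpinc1 on the opposite strand, had 1.57 FPKM in induced and 1.36 FPKM in non-induced cells and missed the threshold in the authors' deposited table (q = 0.0779). Further out, Rabgap1l rose to 15.4 FPKM in induced cells, against 7.71 FPKM in non-induced cells, a log2 change of 0.99 in the authors' deposited table (q = 0.000287). Cenpl, a centromere protein gene, was also called higher. Pdcd10, which starts 0.7 kb from Serpini1 on the opposite strand, had 17.1 FPKM in induced and 15.5 FPKM in non-induced cells and likewise missed it in the authors' deposited table (q = 0.236). Golim4, the next tested gene after Serpini1, was called higher, with a log2 change of 0.24 in the authors' deposited table (q = 0.0165).

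The proteases that serpins are known to inhibit were mostly not tested by the authors, apart from the cysteine proteases. Of 18 coagulation, fibrinolysis and complement proteases in the table, which include the targets of antithrombin, 1 was tested. This was Plau, urokinase, at 0.314 FPKM in induced and 0.0964 FPKM in non-induced cells, with a log2 change of 1.70 in the authors' deposited table (q = 0.000287). F2, F9 and F10, the genes of thrombin and factors IX and X, were not tested. Of 15 granule serine proteases, 2 were tested, Prss57 and Gzmm, and neither was called; the deposited locus of Prss57 is shared with other genes. Among 6 tested membrane and secretory pathway serine proteases, 2 were higher, Tmprss3 and St14, and 1 was lower, Furin. Across all tested rows 19.0% were higher and 16.1% lower. Tmprss3 was at 11.5 FPKM in induced and 4.71 FPKM in non-induced cells, and Furin at 1.41 FPKM in induced and 2.05 FPKM in non-induced cells.

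Of 8 tested cysteine cathepsins and caspases, 5 were higher and 0 lower, with a median log2 change of 0.26. Over all tested rows 19.0% were higher and 16.1% lower, with a median of -0.01. Ctss, a protease of antigen processing, was at 94.7 FPKM in induced and 72.7 FPKM in non-induced cells, and Ctsb at 67.7 FPKM in induced and 53.3 FPKM in non-induced cells. Ctso had the largest change of the list, 0.48 on the log2 scale in the authors' deposited table (q = 0.000287). Casp1 and Casp8 were higher by less, with log2 changes of 0.27 and 0.26 in the authors' deposited table (q = 0.0115 and 0.011). With the q-value under 0.01, 3 of the 8 were higher, where 14.8% of all tested rows were. With the test statistic read as a normal deviate 1 was higher, where 956 of all 10628 rows with a statistic were.

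Genes of cofactors and clearance receptors had calls in both directions. Heparan sulfate, the sugar chain that activates antithrombin, is built by enzymes of which many were expressed. Of 16 tested genes of its synthesis and of proteoglycans, 2 were higher, 5 lower and 9 not called, with a median log2 change of -0.03. Over all tested rows 19.0% were higher and 16.1% lower. Another 10 genes of the list were not tested, Hs3st1 and Hs3st3b1 among them. Hs3st1 was listed at 0 in both groups, and Hs3st3b1 at 0 in induced and 0.00128 FPKM in non-induced cells. The largest rise was that of Srgn, the core protein of the granule proteoglycan serglycin, at 375 FPKM in induced and 201 FPKM in non-induced cells (log2 change 0.90 in the authors' deposited table, q = 0.000287). Sdc4 was the other member called higher. Srgn and Sdc4 encode core proteins of proteoglycans, and no tested enzyme of heparan sulfate synthesis was called higher. The members called lower were enzymes apart from Sdc1, which also encodes a core protein. B4galt7, Sdc1 and Ext2 had the largest falls, with log2 changes of -0.40, -0.38 and -0.33 in the authors' deposited table (q = 0.000287, 0.00127 and 0.000287). Among 6 tested receptors and cofactors, 1 was higher, Lrp8, and 2 were lower, among them Lrpap1. For these the shares over all tested rows are again 19.0% higher and 16.1% lower. Lrp1, the main receptor that clears serpin complexes in the liver, was not tested and was listed at 0.111 FPKM in induced and 0.0148 FPKM in non-induced cells.

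Collagen folding genes, whose products work beside Serpinh1, had 5 of 7 tested members lower, 0 higher and a median log2 change of -0.25, where 16.1% of all tested rows were lower. Plod2, a lysyl hydroxylase gene, was at 12.2 FPKM in induced and 17.3 FPKM in non-induced cells, and P4ha1, a prolyl hydroxylase gene, at 13.4 FPKM in induced and 17.6 FPKM in non-induced cells. Lepre1 and Crtap, subunits of the prolyl 3-hydroxylase complex, and P4hb were also called lower. Lower calls numbered 2 with the q-value under 0.01, where 11.1% of all tested rows were lower, and 1 with the test statistic read as a normal deviate, where 6.17% were. Without Plod2, Crtap and the other rows whose locus is shared, 3 were lower, where 18.0% of all tested rows with a locus of their own were. No collagen gene of the list was tested.

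Protease inhibitors of other families also went both ways, with 2 of 9 tested members higher, 3 lower and 4 not called. Over all tested rows 19.0% were higher and 16.1% lower. Cst3, the secreted inhibitor cystatin C, was at 275 FPKM in induced and 133 FPKM in non-induced cells (log2 change 1.05 in the authors' deposited table, q = 0.000287). Cst7, the endolysosomal inhibitor cystatin F, was at 40.6 FPKM in induced and 78.3 FPKM in non-induced cells (log2 change -0.95 in the authors' deposited table, q = 0.000287). Wfdc17 was listed at 1.25 FPKM in induced cells and at 0 in non-induced cells and was called higher. Itih5, a hyaluronan-binding relative of the plasma inter-alpha inhibitors, fell to 1.11 FPKM in induced cells, against 3.16 FPKM in non-induced cells, and Cstb fell by 0.24 on the log2 scale in the authors' deposited table. The list also held Bst2, which encodes tetherin, an antiviral membrane protein rather than a protease inhibitor, and it was not called.

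**Figure D5:**
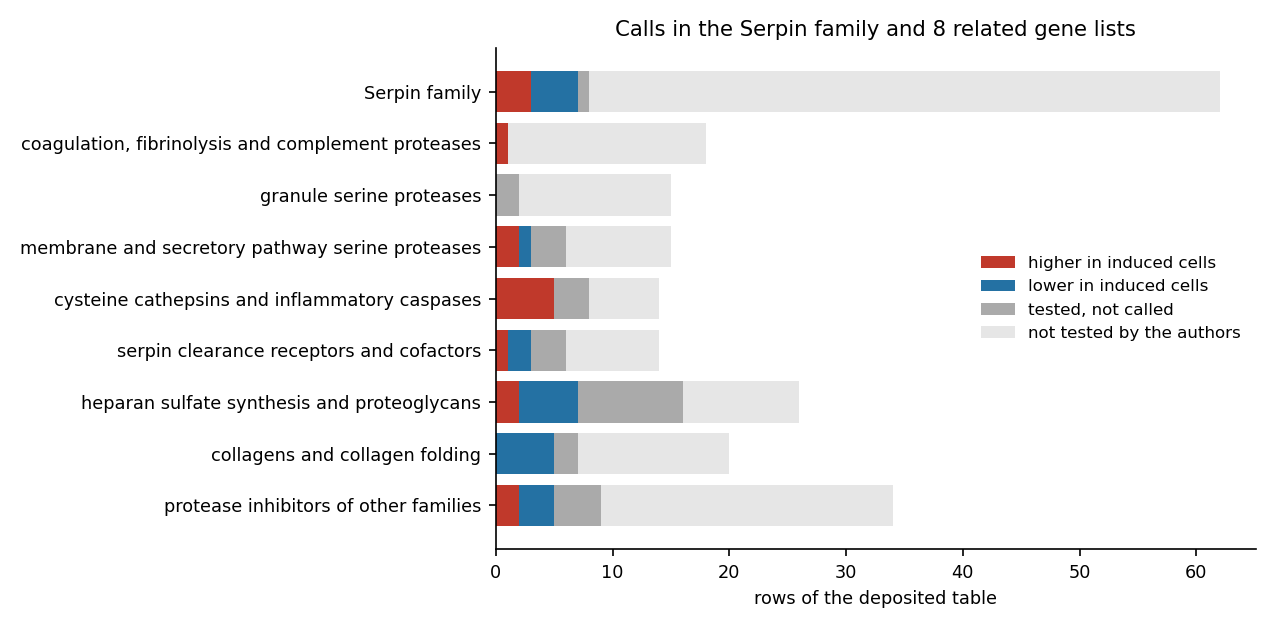
Number of rows in the serpin family and in 8 related gene lists that were called higher in induced cells, called lower, tested without a call, or not tested by the authors. The serpin bar is mostly untested, with 54 of 62 rows. The cysteine protease and collagen folding lists hold calls in 1 direction only, 5 higher and 5 lower. So does the coagulation, fibrinolysis and complement list, whose 1 tested row was called higher.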

How the data were processed

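RNA libraries were stranded mRNA libraries, per the labels' protocols. Per the submitters' processing notes, the tools were Cuffdiff 2.1.1, Cufflinks, TopHat2 2.0.9 and Trim Galore 0.2.8.1, on mm10. Neither the gene annotation nor the strand setting is given in the sources used here. Gene values came as 1 file: the authors deposited a single Cuffdiff table, which lists for each gene an FPKM value per group, their log2 fold change, a score that is the test statistic, and the p-value and q-value. The labels do not tie libraries to cultures, and the p-values may thus reflect technical spread only.

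Members, gene lists and comparisons were chosen with earlier results of these data known. The file holds no value per library, so no test between libraries was made. As an alternative, normal p-values were computed from the deposited test statistic and adjusted by the Benjamini-Hochberg method. Deposited q-values were recomputed by the Benjamini-Hochberg method over 10657 tested rows with a largest difference of 5.15e-07. At 5e-05, 1855 rows share the lowest p-value. The implied standard error is the deposited log2 change over the test statistic, a relation the table does not state; its median over tested rows was 0.151. Every tested serpin row is named, and untested rows from 0.1 FPKM; of related lists the called members with the largest changes, up to 3 each way; of neighbours the called ones, while others there, and genes of known function, were named after their values were seen. A few genes that these rules would name are not reported here.

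Coordinates are from GENCODE M21, on the build the files use: the deposited locus of 62 of 62 serpin rows overlapped the annotated gene. Depth was estimated from FPKM times transcript length in genes with 1 annotated transcript of at least 1000 bases. Of values up to about 4 fragments, 66.0% in the induced and 70.6% in the non-induced group lay within 0.15 of a whole number, where 30% would if evenly spread. Fragments per gene used the exons of the RefSeq-linked transcript inside the deposited locus. Python 3.11.15, NumPy 2.4.6, pandas 2.3.3, SciPy 1.17.1 and matplotlib 3.10.9 were used, and the adjustment of p-values was tested on simulated data.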

Additional observations from a re-analysis of the deposited data

How the results depend on the processing

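A pseudocount of 0.1 or 1 cannot turn a direction; with them the log2 change of Serpinc1 was 6.40 and 3.65. All 8 tested serpin rows kept their direction after centring on the median of all tested rows (-0.01 log2) or of rows of at least 5 FPKM (-0.02). The calls of Serpinb6a and of the joint row of Serpina3f and Serpina3g were lost at a deposited q-value under 0.01 and when the test statistic was read as a normal deviate, which left 2 serpin rows higher and 3 lower under each. A minimum change of 1.5-fold left 2 rows lower and one of 2-fold left 1, with 2 higher under both. Rows of at least 1 FPKM in either group gave the same calls. All 8 tested serpin rows met that minimum, so it removed none and its unchanged calls are no support. Serpinc1 met it through the induced group only, at 12.1 FPKM in induced and 0.0445 FPKM in non-induced cells. Leaving out shared loci removed Serpinb6a. Of 55 tested genes in the 8 related lists, 13 were higher and 16 lower, beside 19.0% and 16.1% of all tested rows. With the normal reading 5 were higher and 6 lower, beside 956 and 656 of 10628 rows, and at a q-value under 0.01, 9 were higher and 10 lower, beside 14.8% and 11.1%. Fragment numbers are estimates, so no counting interval is given for low values. No paired analysis was possible because the table holds 1 value per group, and for the same reason no library could be left out.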
